A study of Caenorhabditis elegans with 8 samples.

Results

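The cytosolic ribosomal protein genes of Caenorhabditis elegans were taken by symbol (rpl, rps or rplp followed by a number, and rpsa-1), which gave 83 of the 19971 protein-coding genes on the 6 nuclear chromosomes. They comprise 52 genes of the large subunit (rpl and rplp) and 31 of the small subunit (rps and rpsa-1). The choice used names and no measured value, but it was made with earlier results of these data known. The question addressed here was where SKN-1 peaks lay at these genes in animals with the gain-of-function protein and in animals with the wild-type protein. Chromatin immunoprecipitation with sequencing had been done on whole animals grown at 20°C on OP50 bacteria, in which SKN-1 carried a green fluorescent protein tag. The GF group carried SKN-1gf(lax188) with the tag, and the WT group carried wild-type SKN-1 with the same tag. Each group has 2 samples precipitated with a Chromotek reagent and therefore 2 peak lists, named GF 1, GF 2, WT 1 and WT 2. Both genotypes also have 2 samples without antibody, which were not analysed here. The labels give neither the age of the animals nor whether replicates were separate cultures, so differences between replicate lists may be technical.

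Ribosomal proteins assemble with ribosomal RNA into the large subunit, which forms peptide bonds, and the small subunit, which decodes messenger RNA. Their genes are short and among the most strongly transcribed of a growing cell. SKN-1 is the worm relative of mammalian Nrf2 and is known for activating detoxification genes. It has also been tied to translation, since lowered translation initiation is known to engage SKN-1 in worms.

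The lists held 25007 peaks in GF 1, 905 in GF 2, 15943 in WT 1 and 29541 in WT 2, and their read depth is unknown. GF 2 stands apart by its length, so the main counts and differences that use it are also given without it. Peaks in the WT 2 list are named as WT replicate 1, so the identity of that list rests on the sample record. A peak's fold is the authors' enrichment at its summit over the caller's background. Folds were low throughout, with medians of 1.55 in GF 1, 1.51 in GF 2, 1.46 in WT 1 and 1.47 in WT 2. To rank a peak within its own list, the fold was turned into a percentile among all peaks of that list. Of 5 known SKN-1 target genes (gst-4, gcs-1, gst-10, sdz-8 and nit-1), 3 had a summit in GF 1, 0 in GF 2, 1 in WT 1 and 4 in WT 2. The glutathione S-transferase gene gst-4 had no summit in any of the 4 lists. Gene positions came from assembly WBcel235 and peaks from build ce10, so distances to genes carry the shift between the builds.

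Nearly all ribosomal protein genes had a peak summit in the gene or within 1000 bp of it. These were 79 of 83 in GF 1, 75 in GF 2, 73 in WT 1 and 80 in WT 2. Over all protein-coding genes the shares were 64.0% in GF 1, 5.46% in GF 2, 47.3% in WT 1 and 70.9% in WT 2. The members' shares were 95.2%, 90.4%, 88.0% and 96.4% in the same order of lists, above the background in each list. The gap was widest in GF 2. Genes of the same length range (276 to 1734 bp, 8116 genes, members included) had shares of 54.2% in GF 1, 5.57% in GF 2, 37.9% in WT 1 and 62.2% in WT 2. With members left out, 4323 of 8033 genes had a summit in GF 1, 377 in GF 2, 3007 in WT 1 and 4972 in WT 2. The members' shares were thus also above those of genes of their own length. Counting summits in the gene itself and leaving out the 1000 bp on either side gave 36 members in GF 1, 46 in GF 2, 51 in WT 1 and 60 in WT 2. Of all genes, 49.2% had such a summit in GF 1, 2.65% in GF 2, 34.2% in WT 1 and 55.4% in WT 2. The members' share of 43.4% in GF 1 was thus below that of all genes, and their shares of 55.4% in GF 2, 61.4% in WT 1 and 72.3% in WT 2 were above it. This background is not matched for length, with a median of 2006 bp for all genes against 754 bp for members. In GF 1 the strongest summit lay inside the gene at 28 of the 83 members. It did so at 2146 of 8033 other genes of like length, and at 8132 of all 19971 genes.

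A total of 70 ribosomal protein genes had a summit in all 4 lists, against 3.85% of all protein-coding genes. Without GF 2, 72 had a summit in GF 1, WT 1 and WT 2, against 41.4% of all genes. Both GF lists held 74 members (4.87% of all genes) and both WT lists held 73 (44.3%). No member had summits in both lists of a genotype and in neither list of the other. Among all genes the pattern was uncommon too, with 20 genes in GF lists alone (0.100%) and 544 in WT lists alone (2.72%).

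**Figure D1:**
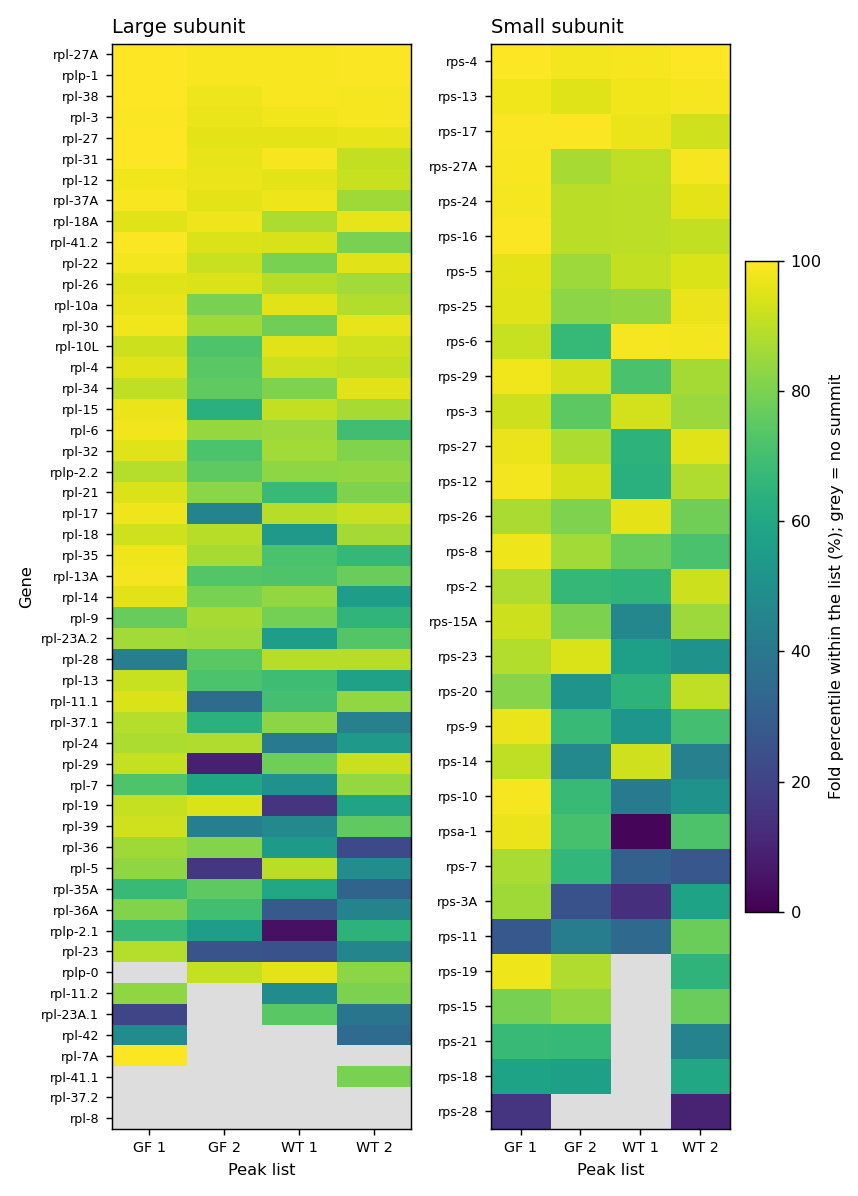
Each row is a ribosomal protein gene, each column a peak list, and the colour is the percentile of the gene's strongest summit by fold within its list, with grey for no summit. Rows run from genes in 4 lists at the top to genes in none, and 70 of the 83 rows have no grey cell.

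Of the large-subunit genes, 44 of 52 had a summit in all 4 lists, and of the small-subunit genes 26 of 31. Large-subunit genes had a summit in 92.3% of cases in GF 1, 86.5% in GF 2, 90.4% in WT 1 and 94.2% in WT 2. Small-subunit genes had one in 100% in GF 1, 96.8% in GF 2, 83.9% in WT 1 and 100% in WT 2. The difference, large minus small, was -7.69 percentage points in GF 1, -10.2 in GF 2, 6.51 in WT 1 and -5.77 in WT 2. Its mean of -4.30 did not pass a two-sided exact sign-flip permutation test over the 4 lists (p = 0.375, where 0.125 is the smallest p that 4 lists allow), and without GF 2 it was -2.32. The same genes were compared in every list, so this test does not measure the spread between genes. WT 1 was the list in which the order of the subunits was opposite to that of the other lists. The 4 genes missing from WT 1 alone were all of the small subunit, namely rps-15, rps-18, rps-19 and rps-21.

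The strongest summit at a ribosomal protein gene was also high within its list. Its median fold was 2.07 in GF 1, 1.72 in GF 2, 1.62 in WT 1 and 1.68 in WT 2, against 1.62, 1.54, 1.51 and 1.55 at other protein-coding genes with a summit. The median percentile was 94.8 in GF 1, 81.3 in GF 2, 80.8 in WT 1 and 83.1 in WT 2, against 64.5, 56.3, 60.5 and 65.9 at other genes. In GF 1, 52 of the 79 members with a summit lay at or above the 90th percentile of the list, and 20 of 75 did so in GF 2, 24 of 73 in WT 1 and 27 of 80 in WT 2. Of all genes with a summit, 17.8% did so in GF 1, 12.8% in GF 2, 14.4% in WT 1 and 17.7% in WT 2. Percentiles of lists of unequal length are not a measure of change between them.

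The fold percentiles of the subunits lay close together in GF 1, GF 2 and WT 2, and farther apart in WT 1. The large-subunit median was 94.5 in GF 1, 81.3 in GF 2, 82.8 in WT 1 and 82.7 in WT 2, and the small-subunit median was 94.97, 81.7, 74.5 and 85.1. The difference, large minus small, was -0.44 in GF 1, -0.33 in GF 2, 8.32 in WT 1 and -2.47 in WT 2. Its mean was 1.27 percentile points (two-sided exact sign-flip permutation p = 1), without WT 1 the mean was -1.08, and without GF 2 it was 1.80. The positive mean thus rested on WT 1. With summits in the gene itself, at 36 to 60 members a list, the difference was 10.1 in GF 1, 4.09 in GF 2, 20.5 in WT 1 and 9.18 in WT 2. Its mean was then 10.97 percentile points, higher at large-subunit genes in all 4 lists (two-sided exact sign-flip permutation p = 0.125, the smallest that 4 lists allow). As the lists share the same genes, these tests do not measure the spread between genes.

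**Figure D2:**
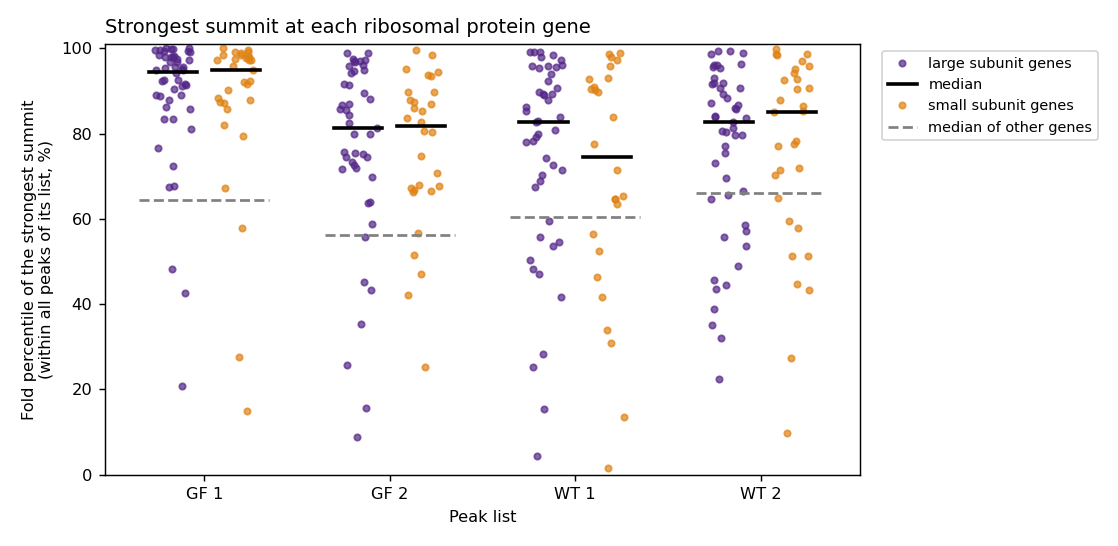
Each point is a ribosomal protein gene with a summit, plotted by the fold percentile of its strongest summit within its list (vertical axis, %), with large-subunit genes left of small-subunit genes in each list. Black bars are medians, and dashed grey lines are the medians of other protein-coding genes (64.5 in GF 1, 56.3 in GF 2, 60.5 in WT 1 and 65.9 in WT 2), which lie below both black bars in each list.

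The peaks at ribosomal protein genes were broad. The peak of the strongest summit had a median width of 961 bp in GF 1, 699 bp in GF 2, 483 bp in WT 1 and 672.5 bp in WT 2. At other protein-coding genes these medians were 307 bp, 261.5 bp, 262 bp and 324 bp. The members themselves have a median length of 754 bp, so many peaks were about as wide as the gene. Peaks covered a median of 86.3% of the member gene in GF 1, 68.8% in GF 2, 39.9% in WT 1 and 76.9% in WT 2. More than 50% of the gene lay under peaks at 60 members in GF 1 (72.3%), 55 in GF 2 (66.3%), 36 in WT 1 (43.4%) and 61 in WT 2 (73.5%). Of all genes, 7.64% passed that mark in GF 1, 0.531% in GF 2, 2.96% in WT 1 and 9.48% in WT 2. Among the 8033 other genes of the members' length range these shares were 11.2%, 0.461%, 4.98% and 14.2%.

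The strongest member peak of GF 1 was shared by a neighbouring pair. rplp-1, which encodes an acidic protein of the ribosomal stalk that recruits elongation factors, and rpl-27A, a large-subunit gene, had the same strongest peak in all 4 lists. Its fold was 4.40 in GF 1, 2.45 in GF 2, 2.34 in WT 1 and 2.44 in WT 2. In GF 1 the peak ran from 2068955 to 2070602 on chromosome I (ce10). These 2 genes cannot be told apart by this peak. In the other lists the highest member fold was that of rps-17 in GF 2, rpl-38 in WT 1 and rps-4 in WT 2.

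The small-subunit gene rps-4 on chromosome IV had folds of 4.08 in GF 1, 2.39 in GF 2, 2.25 in WT 1 and 2.72 in WT 2. Its summits lay 54 bp outside the gene in GF 1, 61 bp in GF 2, 66 bp in WT 1 and 54 bp in WT 2. All 4 summits fell within 12 bp of each other, and they also fell within the neighbouring gene Y43B11AR.3. The GF 1 peak ran from 7083366 to 7084658.

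rpl-38, whose mouse counterpart is known for its part in the translation of Hox messenger RNAs, had folds of 3.62 in GF 1, 2.29 in GF 2, 2.35 in WT 1 and 2.27 in WT 2. Its summits lay 174 to 201 bp outside the gene on chromosome V, within lgc-31, and 27 bp apart at most. rpl-31, a gene for a protein near the exit of the nascent chain tunnel, had folds of 3.71 in GF 1, 2.204 in GF 2, 2.19 in WT 1 and 1.79 in WT 2. Its summits lay 82 to 85 bp outside the gene in GF 1, GF 2 and WT 1, whereas the WT 2 summit lay 180 bp inside.

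Position differed more at rpl-3, the gene of a core protein of the large subunit close to the peptidyl transferase centre, which is 1734 bp long and the longest member. Its folds were 2.77 in GF 1, 2.25 in GF 2, 2.10 in WT 1 and 2.22 in WT 2. The strongest summits lay 48 bp and 59 bp inside 1 end of the gene in GF 1 and GF 2, against 528 bp and 732 bp from the nearer end in WT 1 and WT 2. The peaks were alike in extent, between 1753 and 1816 bp wide. rpl-12, a gene for a protein at the base of the stalk, had its summit 41 bp inside the gene end in both GF 1 and GF 2, and 449 bp and 459 bp from the nearer end in WT 1 and WT 2. Its folds were 2.36 in GF 1, 2.26 in GF 2, 1.90 in WT 1 and 1.82 in WT 2.

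These 7 genes and rps-17, rpl-27, rps-13, rps-27A and rpl-37A were the 12 members with the smallest sum of fold ranks among the members. With ranks among all peaks of each list, rps-6 and rps-24 took the places of rpl-12 and rpl-37A. rps-24 had folds of 2.55 in GF 1, 1.88 in GF 2, 1.73 in WT 1 and 1.97 in WT 2. rps-17 had the highest member fold of GF 2, at 2.64, with 2.93 in GF 1, 1.996 in WT 1 and 1.84 in WT 2. rpl-27 had folds of 3.13, 2.12, 1.90 and 1.98 in GF 1, GF 2, WT 1 and WT 2, and its summits lay within 16 bp of each other inside the gene. rps-13, rps-27A and rpl-37A had folds between 1.71 and 2.64 in the 4 lists. The product of rps-6 is a known target of S6 kinase. Its folds were 1.95 in GF 1 and 1.60 in GF 2, against 2.25 in WT 1 and 2.19 in WT 2. How many members or other genes had both WT folds above both GF folds was not counted. Folds from lists of unequal length are not a measure of change between them.

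A total of 4 members had a summit in at most 1 list. rpl-8, the gene of a core protein of the large subunit, had none in any list, nor did rpl-37.2. rpl-7A had a peak of fold 2.79 in GF 1, 163 bp wide and inside the gene on chromosome IV (4389273 to 4389435), and none in GF 2, WT 1 or WT 2. rpl-41.1 had a summit in WT 2 alone, 916 bp from the gene, and that summit lay within its neighbour rpl-41.2. rpl-42 and rps-28 had summits in GF 1 and WT 2, with folds of 1.54 and 1.41 at rpl-42 and 1.39 and 1.302 at rps-28.

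In 5 cases 2 numbered copies of a ribosomal protein gene are members, and the copies differed in their peaks. Reads from near-identical copies can be placed at either copy, and the sources used here do not say how the authors treated such reads. rpl-41.2 had folds of 2.98 in GF 1, 2.04 in GF 2, 1.82 in WT 1 and 1.64 in WT 2, while rpl-41.1 had no summit nearer than the one it shares with rpl-41.2. rpl-37.1 had folds of 1.89 in GF 1, 1.58 in GF 2, 1.64 in WT 1 and 1.45 in WT 2, while rpl-37.2 had none. The GF summits lay 129 and 276 bp beyond 1 end of rpl-37.1, within nhr-61. The WT summits lay 970 and 964 bp beyond the opposite end, within osta-3. Peaks covered 26.8% of rpl-37.1 in GF 1, 32.1% in GF 2, 0% in WT 1 and 23.4% in WT 2. The summits may belong to those neighbours. Neither the contrast with rpl-37.2 nor the change of end can thus be assigned to rpl-37.1.

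rpl-11 proteins sit with the 5S ribosomal RNA. rpl-11.1 on chromosome V had folds of 2.05 in GF 1, 1.45 in GF 2, 1.55 in WT 1 and 1.69 in WT 2, while rpl-11.2 on chromosome X had 1.79 in GF 1, none in GF 2, 1.46 in WT 1 and 1.65 in WT 2. rpl-23A.2 on chromosome I had folds of 1.84, 1.80, 1.48 and 1.59 in GF 1, GF 2, WT 1 and WT 2. rpl-23A.1 on chromosome X had 1.42 in GF 1, none in GF 2, 1.57 in WT 1 and 1.43 in WT 2. These are the 2 members on chromosome X, and both were missing from GF 2. GF 2 had 64 peaks on X in all (7.07% of its list), and 1.47% of the genes on X had a summit there, against 5.46% of all genes.

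The stalk genes ranged widely. rplp-0, which anchors the stalk, had no summit within 1000 bp in GF 1, and folds of 1.91 in GF 2, 1.90 in WT 1 and 1.67 in WT 2. Peaks still covered 85.9% of rplp-0 in GF 1, with 76.2% in GF 2, 32.4% in WT 1 and 88.4% in WT 2. It was the only member without a summit in a list that had any of its length under a peak there. rplp-2.1 was weak, with folds of 1.65 in GF 1, 1.53 in GF 2, 1.27 in WT 1 and 1.54 in WT 2, and rplp-2.2 had 1.88, 1.65, 1.64 and 1.68. rpsa-1, the small-subunit gene related to the mammalian laminin receptor gene, had folds of 2.26 in GF 1 and 1.62 in GF 2, against 1.25 in WT 1 and 1.59 in WT 2. Its WT 1 value was the lowest member fold of that list.

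Lists of equal length gave a different picture from full lists. The 905 strongest peaks by fold were kept in every list, the length of GF 2. Ribosomal protein genes with a summit then numbered 32 in GF 1 (38.6%), 75 in GF 2 (90.4%), 16 in WT 1 (19.3%) and 9 in WT 2 (10.8%). The background over all protein-coding genes was 4.55% in GF 1, 5.46% in GF 2, 3.82% in WT 1 and 4.02% in WT 2. Both GF shares exceeded both WT shares, by 49.4 percentage points on average. A two-sided exact permutation test over the 4 lists gave p = 0.333, the smallest p that 2 lists against 2 allow, so the comparison cannot pass 0.05. The gap between the GF lists was wider than that between GF 1 and either WT list. Without GF 2 the difference was 23.5 percentage points, and without GF 1 it was 75.3.

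At that length, 6 members had a summit in all 4 lists (rpl-27A, rpl-3, rpl-38, rplp-1, rps-13 and rps-4), against 0.351% of all genes. A summit in GF 1 and GF 2 and in neither WT list was found at 18 members, 8 large and 10 small, against 0.516% of all genes. They were rpl-13A, rpl-15, rpl-17, rpl-22, rpl-30, rpl-35, rpl-41.2, rpl-6, rps-10, rps-12, rps-16, rps-19, rps-24, rps-27, rps-29, rps-8, rps-9 and rpsa-1. The reverse pattern, WT 1 and WT 2 without GF 1 or GF 2, was found at 0 members, against 0.381% of all genes, a background at which fewer than 1 of 83 genes would be found. A further 39 members (47.0%) were held by GF 2 alone, against 3.98% of all genes, and GF 2 is the list that keeps all its peaks here. With GF 2 left out, the same 6 members were held by GF 1, WT 1 and WT 2 (1.62% of all genes), 19 by GF 1 and no WT list (1.43%), and 1, rps-6, by both WT lists and not GF 1 (0.441%).

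Summits at ribosomal protein genes made up 99 of the 905 peaks of GF 2 (10.9%, Wilson 95% interval 9.07 to 13.1). In the strongest 905 peaks of the other lists they made up 31 in GF 1 (3.43%, 2.42 to 4.82), 15 in WT 1 (1.66%, 1.01 to 2.72) and 8 in WT 2 (0.884%, 0.449 to 1.73). The windows around the members span 225 kb, or 0.225% of the length between the first and the last gene of the chromosomes. The intervals cover counting error over peaks alone. Among the strongest 300 peaks, 14 members had a summit in GF 1, 57 in GF 2, 6 in WT 1 and 3 in WT 2, against 1.69%, 2.2%, 1.09% and 1.29% of all genes. Among the strongest 100 peaks the members numbered 6 in GF 1, 23 in GF 2, 0 in WT 1 and 1 in WT 2, against 0.561%, 0.771%, 0.366% and 0.386% of all genes, so the order of the WT lists turned.

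**Figure D3:**
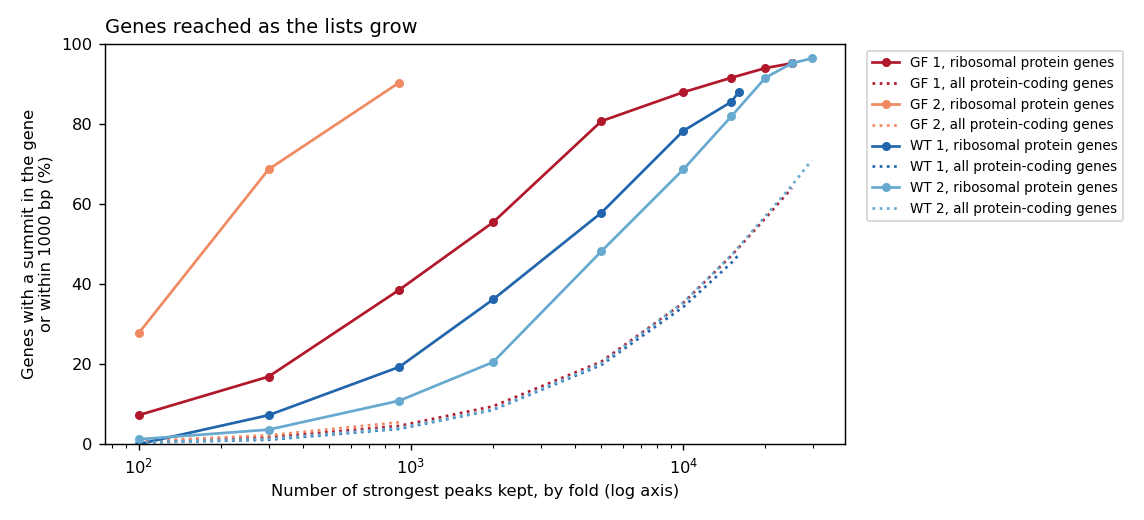
The horizontal log axis gives how many of the strongest peaks of a list are kept, and the vertical axis the percent of genes with a summit in the gene or within 1000 bp. Solid lines are the 83 ribosomal protein genes and dotted lines all protein-coding genes; at 905 peaks the solid lines stand at 38.6% in GF 1, 90.4% in GF 2, 19.3% in WT 1 and 10.8% in WT 2, while the dotted lines lie between 3.82% and 5.46%.

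The strongest summits of the members gathered at the gene ends. The table of genes gives no strand, so a start and an end of transcription cannot be told apart, and each summit was placed by its nearer end. In GF 1, 79.7% of the members' summits lay within 200 bp of an end, in GF 2 77.3%, in WT 1 63.0% and in WT 2 58.8%. Other genes of the same length range had 22.2%, 45.9%, 21.9% and 20.1%. The stretch within 200 bp of an end made up 28.8% of the searched window at members and 26.3% at those genes.

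The percent of members with the strongest summit inside the gene was lower in both GF lists than in both WT lists. The strongest summit lay inside the gene at 28 of 79 members in GF 1 (35.4%, Wilson 95% interval 25.8 to 46.4) and at 33 of 75 in GF 2 (44.0%, 33.3 to 55.3). It lay inside at 43 of 73 in WT 1 (58.9%, 47.4 to 69.5) and at 50 of 80 in WT 2 (62.5%, 51.5 to 72.3). The median position was 50 bp outside the nearer end in GF 1 and 30 bp outside in GF 2, against 103 bp inside in WT 1 and 120 bp inside in WT 2. These intervals cover counting over genes alone, and the genes of a list are not replicates of a genotype. The GF 2 interval overlapped those of both WT 1 and WT 2. The mean difference in the percent inside, GF minus WT, was -21.0 percentage points (two-sided exact permutation p = 0.333, the smallest possible), and without GF 2 it was -25.3. This comparison of genotypes was added after the positions were seen.

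The central part of the gene, from 0.333 to 0.667 of its length, held few GF summits, 4 in GF 1 and 4 in GF 2, against 15 in WT 1 and 16 in WT 2. Other genes of like length had 49.6% of their strongest summits inside the gene in GF 1 and 35.3% in GF 2, against 47.2% in WT 1 and 48.7% in WT 2. Among those genes GF 1 lay close to the WT lists, and GF 2 lay below them as it did at the members. On the 70 members with a summit in all lists the percent inside was 37.1 in GF 1 and 44.3 in GF 2, against 57.1 in WT 1 and 58.6 in WT 2. The median distance of the summit from the gene's centre at these members was 394 bp in GF 1 and 430 bp in GF 2, against 287.5 bp in WT 1 and 291 bp in WT 2. The 698 other genes in all lists had the same order, with 1057.5 bp in GF 1 and 1219 bp in GF 2, against 1016.5 bp in WT 1 and 1001.5 bp in WT 2.

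**Figure D4:**
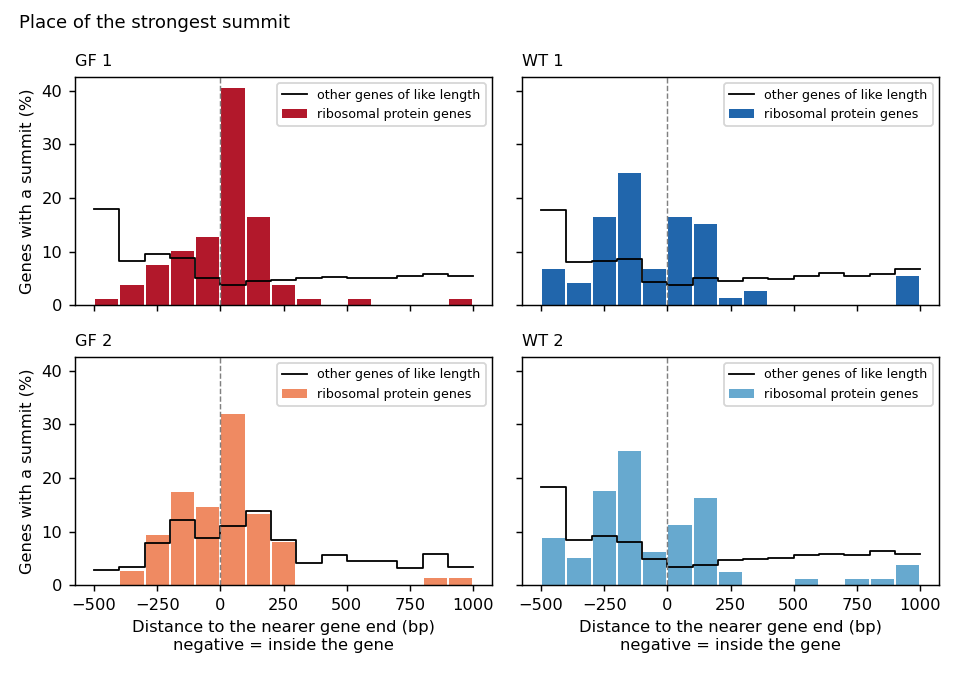
The horizontal axis is the distance of the strongest summit from the nearer gene end in bp (negative inside the gene; summits more than 500 bp inside are counted in the first bin), and the vertical axis the percent of genes with a summit, in bins of 100 bp. Bars are ribosomal protein genes and black lines other genes of like length; the tallest bar lies just outside the gene in GF 1 and GF 2, and 100 to 200 bp inside the gene in WT 1 and WT 2.

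Gene by gene the positions were uneven. At 21 of the 70 members (30.0%) both GF summits lay farther from the gene's centre than both WT summits, and at 12 (17.1%) both lay nearer. Among all 768 genes with summits in all lists these shares were 23.3% and 14.6%, so the members' counts were near the background. The 21 genes included rpl-3, rpl-12, rpl-31, rpl-38, rps-13 and rps-24, and the 12 included rpl-5, rpl-30, rps-3, rps-6 and rps-16. No minimum distance was required, so shifts of a few bp were counted. All 4 summits lay within 12 bp at rps-24 and rpl-30, 21 bp at rps-6, 27 bp at rpl-38 and 36 bp at rpl-5. At the other genes named here the summits spanned 435 bp (rps-3) to 1157 bp (rpl-3). At 37 members the GF and WT distances overlapped. Without GF 2, the GF 1 summit lay farther than both WT summits at 32 of 72 members (44.4%), against 31.5% of 8275 genes, and nearer at 17 (23.6%), against 34.1%.

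Summits of the same member were also compared between lists. The distance itself needs no gene position, though the summits were chosen in the gene or within 1000 bp of it. The median distance between the strongest summits of the same member was 39.5 bp between GF 1 and GF 2 (74 members) and 40 bp between WT 1 and WT 2 (73 members). Between genotypes it was 63.5 bp for GF 1 and WT 1, 73 bp for GF 1 and WT 2, 123 bp for GF 2 and WT 1 and 192 bp for GF 2 and WT 2. Lists of 1 genotype thus placed the members' summits closer together than lists of different genotypes, a difference that was described and not tested. These distances were not taken for other genes. At 30 of the 70 members all 4 summits fell within 200 bp, and at 6 they were spread over more than 1000 bp. rpl-30, rps-4 and rps-24 were the tightest, at 12 bp each.

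Large and small subunit genes did not differ in place in the same direction in every list. The strongest summit lay inside the gene at 43.8% of large and 22.6% of small subunit genes in GF 1, and at 40% and 50% in GF 2. In WT 1 these were 61.7% and 53.8%, and in WT 2 65.3% and 58.1%. Both GF values lay below both WT values for large and for small subunit genes.

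Many summits could belong to a neighbouring gene as well. Among the strongest summits outside the member, 22 of 51 in GF 1, 18 of 42 in GF 2, 20 of 30 in WT 1 and 20 of 30 in WT 2 fell within another protein-coding gene. Between genes lay 29 in GF 1 and 24 in GF 2, against 10 in WT 1 and 10 in WT 2. The member was strictly the nearest protein-coding gene at 49 members in GF 1, 49 in GF 2, 49 in WT 1 and 56 in WT 2.

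Other genes of the translation apparatus were counted the same way, from lists of names. Of 6 elongation factor genes (eef), 6 had a summit in GF 1, 3 in GF 2, 6 in WT 1 and 6 in WT 2. eef-1A.1, which brings aminoacyl-tRNA to the ribosome, had folds of 3.27 in GF 1, 2.18 in GF 2, 1.97 in WT 1 and 2.56 in WT 2. The highest folds among the 83 ribosomal protein genes were 4.40, 2.64, 2.35 and 2.72 in the same order of lists. The median fold percentile of elongation factor genes with a summit was 95.7 in GF 1, 74.0 in GF 2, 71.1 in WT 1 and 87.5 in WT 2. That of ribosomal protein genes was 94.8, 81.3, 80.8 and 83.1, lower in GF 1 and WT 2 and higher in GF 2 and WT 1. Of 25 initiation factor genes (eif), 19 had a summit in GF 1 (76.0%), 3 in GF 2 (12%), 17 in WT 1 (68.0%) and 20 in WT 2 (80.0%). Led by eif-2Bgamma, with 2.75, 2.06, 1.90 and 1.97 in GF 1, GF 2, WT 1 and WT 2, these genes lay nearer to the background than the ribosomal protein genes did. The eif-2Bgamma summit lay outside the gene in every list and may belong to a neighbour.

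Of 23 ribosome biogenesis genes listed, 21 matched the table, and 17 had a summit in GF 1, 6 in GF 2, 14 in WT 1 and 19 in WT 2. fib-1, the gene of the ribosomal RNA methyltransferase fibrillarin, had folds of 2.71 in GF 1, 1.87 in GF 2, 1.72 in WT 1 and 1.79 in WT 2. Its neighbour rps-16, a member, had the same folds in every list, so these peaks do not tell fib-1 from rps-16. The summit lay within rps-16 in GF 1 and GF 2, and within fib-1 in WT 1 and WT 2. lpd-7 likewise shared its folds with the member rpl-9, and the mitochondrial ribosomal protein gene mrpl-49 with rpl-28. Other sharing between these sets and the members was not counted. The 71 mitochondrial ribosomal protein genes had a summit in 39.4% of cases in GF 1, 8.45% in GF 2, 21.1% in WT 1 and 53.5% in WT 2. In GF 1, WT 1 and WT 2 these shares lay below the background, unlike those of the cytosolic genes. ubq-2, which encodes ubiquitin fused to a ribosomal protein and falls outside the naming rule, had folds of 2.44 in GF 1, 1.79 in GF 2, 1.89 in WT 1 and 1.79 in WT 2. rack-1, a scaffold protein gene of the small subunit, had 1.76, 1.35, 1.29 and 1.77.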

How the data were processed

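The authors deposited 1 narrowPeak list per precipitated sample, so peaks were called per sample. Per the submitters' processing notes the tools were MACS2 2.2.7.1, BWA 0.7.17, Trim Galore 0.6.4 and SAMtools 1.10, with build ce10 and no settings. The sources used here do not name the control used for calling. A deposited list gives per peak a fold enrichment, a -log10 p and a -log10 q (lowest 1.302 in GF 1), and a score, which was not used in any result. Read depth is unknown.

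A summit was the peak start plus its offset. A gene was counted when a summit lay in it or within 1000 bp, and its strongest summit was the one of highest fold. Genes came from a RefSeq table of WBcel235, which has no strand and whose positions are not printed. No genome was given, so no sequence was read. SciPy 1.17.1, pandas 2.3.3, NumPy 2.4.6 and matplotlib 3.10.9 were used with Python 3.11.15. Counting was checked on simulated lists with planted summits. Members and lists were chosen with earlier results of these data known. Named members were the 12 of smallest summed fold rank among members, those in at most 1 list, numbered copies, the stalk genes and rpsa-1. No gene was analysed under the symbol ubl-1. Tests were exact permutations over lists. Alternatives covered the window, the peaks kept, summit shifts of 100 bp, lists left out and the replicate block.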

Additional observations from a re-analysis of the deposited data

How the results depend on the processing

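Counts of members per list were within 1.5 times of those reported with windows of 500 and 2000 bp, summits moved by 100 bp either way, peak overlap and a -log10 q of at least 5. With summits in the gene itself the counts fell to 36 in GF 1, 46 in GF 2 and 25 in all 4 lists. Counting a summit for its nearest protein-coding gene alone (chosen after seeing the data) gave 52 in GF 1. The strongest 905 peaks gave 32 in GF 1, 16 in WT 1 and 9 in WT 2, and 6 in all 4 lists, as fewer peaks were kept. The subunit difference in percent with a summit turned to 1.40 with summits in the gene itself, and ranged from -7.90 to -2.32 with a list left out. The subunit difference in fold percentile moved to 10.97 with summits in the gene itself (p = 0.125 in the exact sign-flip permutation test), turned to -1.21 at a -log10 q of at least 5, and ranged from -1.08 to 2.52 with a list left out; the cause was not tested. The percent of summits inside the gene in GF 1 moved to 50.6 and 47.5 with summits moved 100 bp up and down. The GF minus WT difference in that percent kept its sign in every alternative run, from -25.3 to -13.6. The difference at equal length ranged from 23.5 to 75.3 percentage points. With the replicate numbers as a block the differences were 49.4 and -21.0, each with an exact sign-flip permutation p of 0.5, the smallest that 2 pairs allow; nothing in the labels says that the numbers pair the samples. The patterns of lists at equal length and the distances from the gene's centre without GF 2 were added after seeing the data. Unknown read depth limits every comparison between lists, since list length moves with depth.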
